A study of Mus musculus with 12 samples.

Results

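Pml and 8 genes whose products meet at PML nuclear bodies, Sp100, Daxx, Atrx, Hipk2, Rb1, Crebbp, Usp7 and Sirt1, were followed in mouse liver. Every probe set annotated to exactly 1 of these symbols was taken. That gave 23 of 45037 probe sets, and they cover 8 of the 9 genes: 2 for Pml, 2 for Sp100, 1 for Daxx, 8 for Hipk2, 2 for Rb1, 1 for Crebbp, 6 for Usp7 and 1 for Sirt1. Atrx had 0 such probe sets and was not analysed here. Probe sets of 1 gene report on the same transcripts and are not independent of each other.

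The livers came from male mice, either wild type or lacking Pml, that had been fed for 20 weeks on a low-fat diet, in which fat gave 10% of the calories, or on a high-fat diet, in which it gave 60%. All mice were fasted for 8 h before the organ was taken. The 4 groups were wild-type low-fat, knockout low-fat, wild-type high-fat and knockout high-fat, each with 3 liver extracts out of 8 mice, and each extract was hybridised to its own array. The knockout is named in the labels without its allele, the part of the gene removed or the strain, and nothing there says outright that the extracts are of separate animals, so p-values measure the spread between extracts. Values are log2 signals made with RMA, a method that corrects, normalizes and summarises the probes of an Affymetrix array, and a difference of 1 is a 2-fold change. In whole liver, fewer cells of a type and less RNA per cell cannot be told apart.

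PML is a RING-finger protein of the TRIM family that becomes modified by the small protein SUMO and then gathers into spherical bodies in the nucleus. SUMO attached to PML holds other proteins there, many of which carry short SUMO-binding stretches. Sp100 is a permanent resident of the bodies, and Daxx is a histone chaperone that works with the chromatin remodeller ATRX. HIPK2, a kinase, and CBP, the acetyltransferase encoded by Crebbp, modify the tumour suppressor p53. USP7 removes ubiquitin from p53 and its antagonist MDM2, SIRT1 removes acetyl groups from p53, and RB1 restrains the E2F factors that drive the cell cycle. In liver, CBP and SIRT1 also act on the transcription programme of fasting, and PML, Sp100 and Daxx are known as interferon-inducible genes.

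The start regions of 3 of these genes are shown, Pml itself and the partner genes Sp100 and Hipk2. Both partners had a probe set at an unadjusted p under 0.05 (limma) in knockout against wild type averaged over both diets. That threshold took in 5.97% of all probe sets, and neither partner passed after adjustment. Each window holds 250 bases before and 50 bases after a start site of RefSeq's annotation of build GRCm38.p6, and is written 5′ to 3′ on the strand of the gene. Capitals mark the GC box, GGGCGG on either strand, a site for factors of the SP family, with overlapping matches kept.
Pml, chr9:58249737-58250036, minus strand: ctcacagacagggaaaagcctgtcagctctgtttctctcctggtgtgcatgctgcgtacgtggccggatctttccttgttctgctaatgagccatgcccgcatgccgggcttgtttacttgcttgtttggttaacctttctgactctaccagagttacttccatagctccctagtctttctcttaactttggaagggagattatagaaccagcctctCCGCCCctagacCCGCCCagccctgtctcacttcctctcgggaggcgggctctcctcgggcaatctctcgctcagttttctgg
Sp100, chr1:85649738-85650037, plus strand: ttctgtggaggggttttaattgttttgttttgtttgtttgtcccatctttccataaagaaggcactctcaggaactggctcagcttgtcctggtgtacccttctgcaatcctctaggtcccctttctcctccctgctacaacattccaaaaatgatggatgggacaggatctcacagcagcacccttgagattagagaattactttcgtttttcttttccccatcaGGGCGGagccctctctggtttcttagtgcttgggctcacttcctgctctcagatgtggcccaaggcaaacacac
Hipk2, chr6:38876141-38876440, minus strand: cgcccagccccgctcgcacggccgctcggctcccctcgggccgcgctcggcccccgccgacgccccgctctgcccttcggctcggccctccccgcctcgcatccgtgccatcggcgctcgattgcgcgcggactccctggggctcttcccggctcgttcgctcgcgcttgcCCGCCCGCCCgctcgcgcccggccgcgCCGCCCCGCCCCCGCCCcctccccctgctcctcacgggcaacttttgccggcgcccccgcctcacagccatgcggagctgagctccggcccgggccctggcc

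Windows were found for 8 of the 9 genes, 12 in all. Rb1 was not matched. The Pml window held 2 GC boxes, that of Sp100 1 and that of Hipk2 5. A second Hipk2 window at chr6:38837262-38837561 held 0. A GC box stood in 10 of the 12 windows, which belong to 7 of the 8 genes, against 35.7% of the 32851 windows of the table. The 12 windows are not all separate sequences. Those of Daxx overlap each other, as do those of Sp100, and hold some of the same boxes. The core of the interferon-stimulated response element, GAAA 2 times with 2 bases between, and the gamma-activated site, TTCNNNGAA, were searched on both strands and matched 0 of the 12 windows, against 3.44% and 8.3% of all windows. The E-box CACGTG occurred 2 times in the Sirt1 window, in 0 of the other windows of these genes and in 7.15% of all windows. The cAMP response element TGACGTCA occurred in 0 of the 12 and in 1.79% of all. A match describes letters in these windows and nothing about what binds there. The G and C content of the 12 windows ran from 47.7% (Sp100) to 86.0% (Usp7), with a median of 52.7% over the whole table.

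Across the 12 arrays the median signals lay between 3.94 and 4.0, and correlations between arrays, over probe sets that are not independent replicates, between 0.987 and 0.995. The 7 measured hepatocyte markers averaged 12.6 to 12.8 in every array, far above the median probe-set mean of 3.96, as befits the labelled tissue. The 12 Kupffer cell and macrophage markers averaged 4.92 in knockout low-fat replicate 2 and 5.51 in knockout high-fat replicate 3, against 6.04 to 6.95 in the other 10 arrays. The 12 sinusoidal endothelial markers averaged 5.93 to 6.01 in knockout low-fat replicate 2 and knockout high-fat replicates 2 and 3, against 6.47 to 6.96 elsewhere. T and NK cell markers averaged 4.10 to 4.45, B cell markers 3.82 to 4.25, stellate cell markers 4.37 to 4.98 and cholangiocyte markers 3.76 to 3.95. Of the macrophage list Timd4, and of the endothelial list Lyve1, lay below the array median. So did 3 of 6 measured T and NK cell markers, 2 of 3 B cell, 2 of 5 stellate cell and 3 of 4 cholangiocyte markers. Actin's 3′ signal exceeded its 5′ signal, a sign of RNA quality, by 1.26 to 1.85 log2 units.

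Pml was the 1 probe set of all 45037 that passed an adjusted p of 0.05 in knockout against wild-type livers, on either diet or averaged over both (0.00222% of probe sets in each comparison; limma with Benjamini-Hochberg adjustment). This was probe set 1448757_PM_at. Its log2 signal was 5.40, 4.92 and 5.07 in wild-type low-fat livers and 4.97, 5.35 and 5.38 in wild-type high-fat livers. Knockout low-fat livers gave 3.70, 3.59 and 3.59, and knockout high-fat livers 3.43, 3.04 and 3.82. Every knockout liver lay below the median probe set and every wild-type liver above it. The log2 difference was -1.51 on the low-fat diet (95% interval -1.90 to -1.11, adjusted p = 0.0369) and -1.80 on the high-fat diet (-2.20 to -1.41, adjusted p = 0.00395), which are falls of 2.84-fold and 3.49-fold. Averaged over both diets it was -1.66 (-1.93 to -1.38, adjusted p = 0.00013).

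The second Pml probe set, 1456103_PM_at, was dim everywhere and lay below the median probe set in all 12 livers. Its values were 3.42, 3.26 and 3.20 in wild-type low-fat livers and 2.92, 2.73 and 3.03 in knockout low-fat livers. Wild-type high-fat livers gave 3.11, 3.04 and 3.21, and knockout high-fat livers 2.98, 2.83 and 2.89. The 6 knockout livers thus lay below the 6 wild-type livers here too, a separation in this direction that 0.0733% of all probe sets showed. The averaged difference was -0.31 (95% interval -0.45 to -0.16), which ranked 20th of all probe sets by p but did not pass (adjusted p = 0.768). The labels do not tell where either probe set lies relative to the removed part, and log2 differences of dim signals understate changes in RNA, so the folds do not measure how much transcript was left.

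Diet moved neither Pml probe set past the threshold. The brighter one differed between high-fat and low-fat livers by 0.10 (95% interval -0.29 to 0.49) in wild-type mice and by -0.20 (-0.59 to 0.20) in knockout mice. The genotype difference itself did not differ detectably between the diets, with an interaction of -0.30 (-0.85 to 0.26, adjusted p = 0.915). The low-fat call was lost without any 1 of the 3 wild-type low-fat or 3 knockout low-fat arrays, without wild-type high-fat replicate 2 or 3 and without knockout high-fat replicate 1, with log2 differences from -1.61 to -1.37 and an adjusted p of up to 0.264. It was also lost with all arrays when the 40% dimmest probe sets were left out (adjusted p = 0.056), without a variance trend (0.0793), with the replicate number as a block (0.0566), with array weights (0.0817) and with the 2 groups fitted alone (0.0559). Without knockout low-fat replicate 2 and knockout high-fat replicate 3 it was lost too (adjusted p = 0.115). The high-fat call was lost without wild-type high-fat replicate 2 (-1.74, adjusted p = 0.0549) or 3 (-1.73, adjusted p = 0.055), and the averaged call held without each array in turn.

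**Figure D1:**
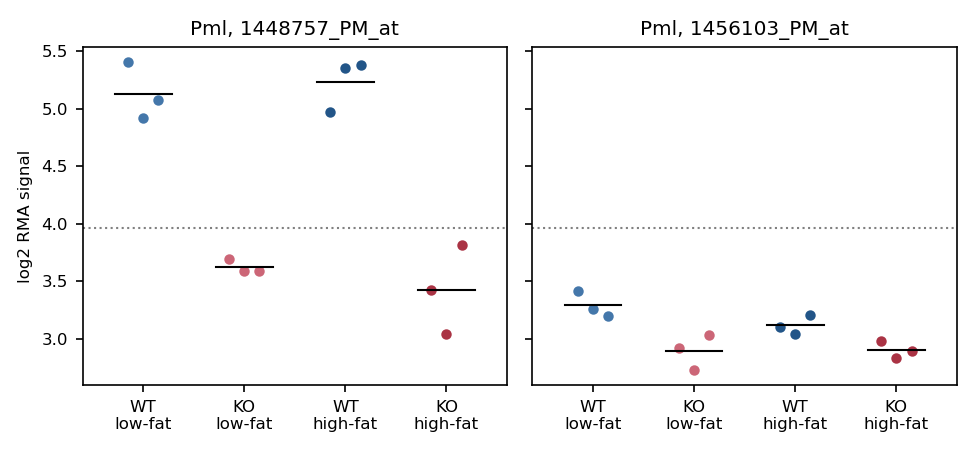
Log2 RMA signal of the 2 Pml probe sets in each of the 12 livers, by genotype (WT, wild type; KO, knockout) and diet; points are single arrays, bars are means of 3 arrays, and the dotted line is the median of all probe-set means, 3.96. On the left, every knockout liver (3.04 to 3.82) lies below every wild-type liver (4.92 to 5.40); on the right the same order holds over a range of 2.73 to 3.42.

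Of the 21 partner probe sets 0 passed in any of the 6 comparisons with limma after Benjamini-Hochberg adjustment. At an unadjusted p under 0.05 there were 6 on the low-fat diet, 1 on the high-fat diet and 4 in the average of knockout against wild type. Over all 23 probe sets, Pml included, these counts were 8, 3 and 6, and the same threshold took in 7.21%, 4.68% and 5.97% of all probe sets. The largest partner difference in the averaged comparison was 0.28, and no 95% interval there reached beyond -0.55 (Crebbp) or 0.51 (Hipk2). On the low-fat diet 5 of the 23 probe sets had all knockout livers above all wild-type livers and 2 had them all below, against 6.64% and 4.61% of all probe sets. On the high-fat diet 5 had them all below and 0 all above, against 4.84% and 5.96%. These 5 were both Pml probe sets, 1 of Hipk2, 1 of Rb1 and 1 of Usp7. The median difference over the 23 probe sets was 0.10 on the low-fat diet, -0.12 on the high-fat diet and 0.02 on average, beside 0.01, 0.01 and 0.01 for all probe sets. In simulated data of the low-fat comparison, 50 probe sets were altered at each of 1.5, 2, 4 and 8-fold, and 175 were called. Of the 1.5-fold changes 48% were recovered, and of the 2-fold changes 84%. The real comparison gave 1 call, and Benjamini-Hochberg adjustment is stricter when fewer probe sets change. These shares therefore do not measure what could be found among the partners here.

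**Figure D2:**
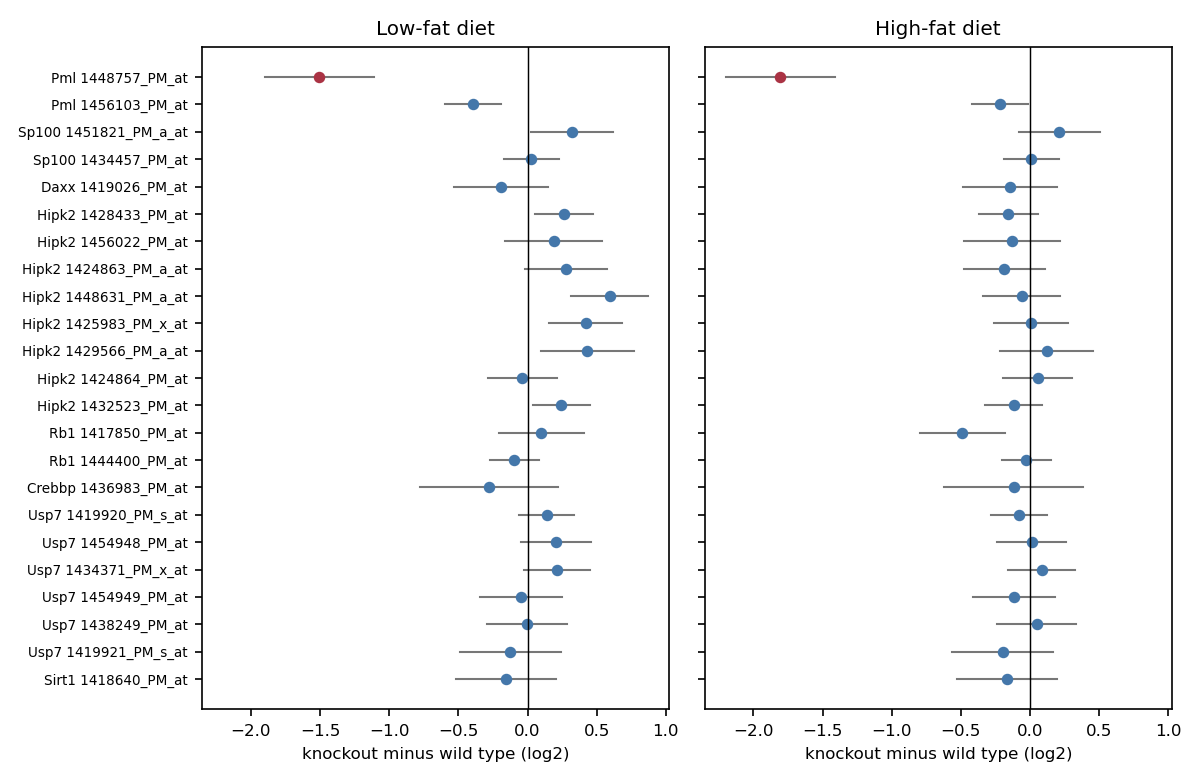
Knockout minus wild-type difference (log2) of the 23 probe sets on the low-fat diet (left) and the high-fat diet (right); points are limma estimates, lines are 95% intervals, and red marks an adjusted p under 0.05. Only 1 Pml probe set is red, at -1.51 and -1.80; on the low-fat diet 7 of 8 Hipk2 points lie right of 0, and on the high-fat diet 3 of 8.

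Sp100, the resident protein of the bodies that is named for its speckled pattern, had higher values in knockout livers on its brighter probe set, 1451821_PM_a_at. It read 3.60, 3.33 and 3.61 in wild-type low-fat livers and 4.01, 3.89 and 3.60 in knockout low-fat livers. Wild-type high-fat livers gave 3.99, 3.68 and 3.69, and knockout high-fat livers 4.11, 4.05 and 3.83. The genotypes overlapped on both diets, since knockout low-fat replicate 3 lay within the wild-type values and wild-type high-fat replicate 1 within those of the knockout. The averaged difference was 0.27 (95% interval 0.06 to 0.47, adjusted p = 0.822). All 3 wild-type high-fat livers lay above all 3 wild-type low-fat livers, as 6.62% of all probe sets did, with a diet difference of 0.27 (-0.02 to 0.57, adjusted p = 0.698). The other Sp100 probe set, 1434457_PM_at, stayed between 3.59 and 3.76 in all 12 livers and had an averaged difference of 0.02 (-0.12 to 0.16). The mean of each over the 12 livers lay below the median probe set.

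Daxx, which places histone H3.3 at repeats and telomeres, had 1 probe set, 1419026_PM_at. Its values were 6.76, 6.66 and 6.33 in wild-type low-fat livers, 6.13, 6.52 and 6.53 in knockout low-fat livers, 6.20, 6.53 and 6.68 in wild-type high-fat livers and 6.40, 6.34 and 6.23 in knockout high-fat livers. All 4 groups overlapped. The averaged genotype difference was -0.17 (95% interval -0.41 to 0.07, adjusted p = 0.853), and the diet differences were -0.11 (-0.45 to 0.22) for wild-type and -0.07 (-0.41 to 0.27) for knockout livers.

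Hipk2, the kinase that phosphorylates p53 after severe DNA damage, had higher values in knockout than in wild-type livers under low-fat feeding, and lower values in knockout livers on the high-fat than on the low-fat diet, without passing the threshold in either comparison. Of its 8 probe sets, 6 lay above the median probe set, and the other 2 (1424864_PM_at and 1432523_PM_at) were dim. The brightest, 1428433_PM_at, read 9.08, 8.79 and 9.05 in wild-type low-fat livers and 9.29, 9.25 and 9.17 in knockout low-fat livers. It read 8.80, 9.06 and 8.97 in wild-type high-fat and 8.77, 8.75 and 8.84 in knockout high-fat livers. The 3 knockout low-fat livers were the highest of all 12, and 2 of the 3 knockout high-fat livers were the lowest. How many of all probe sets show such an order was not counted.

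On the low-fat diet the largest Hipk2 difference between genotypes was that of 1448631_PM_a_at. Wild-type livers read 6.47, 6.27 and 6.56 there and knockout livers 6.89, 7.20 and 6.98, a difference of 0.59 (95% interval 0.32 to 0.87, adjusted p = 0.383). In 5 of the 8 probe sets every knockout low-fat liver lay above every wild-type low-fat liver, as did 6.64% of all probe sets, and these 5 share 1 gene. The 5 differences ranged from 0.19 to 0.59. On the high-fat diet the 8 differences ran from -0.19 to 0.12, with adjusted p of at least 0.982.

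In knockout livers the high-fat diet went with lower values on all 8 Hipk2 probe sets, from -0.46 to -0.05. The brightest had a difference of -0.45 (95% interval -0.66 to -0.24), a 1.37-fold lower signal, and did not pass (adjusted p = 0.0638). In 5 of the 8 probe sets every knockout high-fat liver lay below every knockout low-fat liver, a separation seen in 7.68% of all probe sets (6.97% in the other direction), while adjusted p under 0.05 in the same comparison took in 0.502% of all probe sets and 0 of the 23 described here. The brightest passed when dim probe sets were left out (adjusted p = 0.041), with the brightest probe set of each gene and the 40% dimmest genes left out together (0.0244), with robust variance (0.0446), with array weights (0.0444) and without wild-type low-fat replicate 2 (0.0402). In wild-type livers the 8 diet differences ran from -0.14 to 0.22. The difference between these diet effects was -0.42 for the brightest (-0.72 to -0.12) and -0.66 for 1448631_PM_a_at (-1.05 to -0.26). Neither passed over all probe sets (adjusted p = 0.864 for both), so a diet effect that differs between the genotypes is not shown.

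The 6 brighter Hipk2 probe sets were also read together. Their signal minus its mean over the 12 arrays, averaged over the 6, was 0.23, 0.39 and 0.21 in the knockout low-fat livers, against -0.06, -0.20 and 0.003 in the wild-type low-fat livers. Wild-type high-fat livers gave -0.18, 0.06 and -0.07, and knockout high-fat livers -0.08, -0.21 and -0.10. The knockout low-fat livers stood above all others, an order that was not counted over all probe sets either. Knockout low-fat replicate 2, highest here, is also the array with the lowest Kupffer cell and macrophage markers. Without it the low-fat difference of 1448631_PM_a_at was 0.50 and that of 1424863_PM_a_at 0.14 in place of 0.28. Other single arrays also weighed on the low-fat differences. Without knockout low-fat replicate 1, that of 1456022_PM_at was 0.09 in place of 0.19 and that of 1432523_PM_at 0.14 in place of 0.24. Without wild-type low-fat replicate 2, that of the brightest was 0.17 in place of 0.26 and that of 1424863_PM_a_at 0.18. Another alternative, chosen after seeing the data, left out knockout low-fat replicate 2 and knockout high-fat replicate 3. There the diet difference of the brightest probe set in knockout livers was -0.47 (limma, adjusted p = 0.261).

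**Figure D3:**
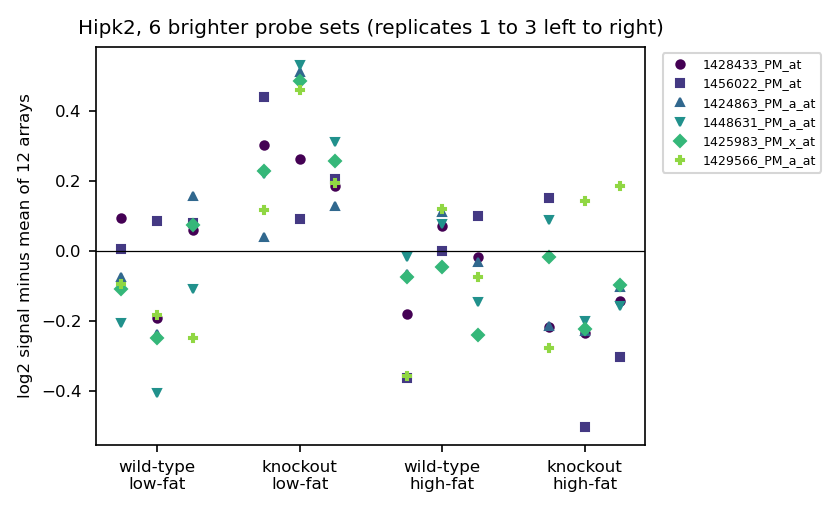
Log2 signal of the 6 brighter Hipk2 probe sets minus the mean of each over the 12 arrays, by group; within a group the replicates 1 to 3 run from left to right and each symbol is 1 probe set. All points of the knockout low-fat livers lie above 0 (0.04 to 0.53), while the other 9 livers scatter between -0.50 and 0.19.

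Rb1, the retinoblastoma protein gene, had lower values in knockout livers on the high-fat diet. Its brighter probe set, 1417850_PM_at, read 7.05, 6.72 and 6.99 in wild-type low-fat, 6.92, 7.0 and 7.13 in knockout low-fat, 6.72, 7.0 and 7.09 in wild-type high-fat and 6.26, 6.39 and 6.69 in knockout high-fat livers. The 3 knockout high-fat livers lay below all wild-type high-fat livers, as in 4.84% of all probe sets. They also lay below all knockout low-fat livers, as in 7.68%. Their difference from the wild type on the same diet was -0.49 (95% interval -0.80 to -0.18, adjusted p = 0.982), and from knockout livers on the low-fat diet -0.57 (-0.88 to -0.26, adjusted p = 0.11).

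The Rb1 diet difference in wild-type livers was 0.02 (95% interval -0.29 to 0.33), and the difference of the diet effects was -0.59 (-1.02 to -0.16, adjusted p = 0.864). With the brightest probe set of each gene and the 40% dimmest genes left out together, the diet difference in knockout livers passed (adjusted p = 0.0498). In knockout high-fat replicates 1, 2 and 3 the sinusoidal endothelial markers averaged 6.74, 5.96 and 5.93, and Rb1 read 6.26, 6.39 and 6.69. The part of these markers in the Rb1 result was not tested. The high-fat difference between the genotypes was -0.40 without knockout high-fat replicate 1 and -0.61 without replicate 3. The second Rb1 probe set, 1444400_PM_at, was among the dimmest 1% of the array, at 2.38 to 2.74, and had an averaged genotype difference of -0.06 (-0.19 to 0.06).

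Crebbp, which encodes the acetyltransferase CBP, had 1 probe set, 1436983_PM_at, with the widest spread within groups among the partners. It read 6.94, 7.05 and 7.33 in wild-type low-fat and 6.93, 6.39 and 7.17 in knockout low-fat livers. Wild-type high-fat livers gave 6.39, 6.47 and 7.02, and knockout high-fat livers 6.99, 6.23 and 6.30. Genotypes overlapped on both diets, with an averaged difference of -0.20 (95% interval -0.55 to 0.16, adjusted p = 0.878). The high-fat minus low-fat difference was -0.48 (-0.98 to 0.02, adjusted p = 0.686) for wild-type and -0.32 (-0.82 to 0.18, adjusted p = 0.712) for knockout livers.

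Sirt1, the NAD-dependent deacetylase, had 1 probe set, 1418640_PM_at, with the same order of group means as Crebbp. It read 6.86, 7.10 and 7.02 in wild-type low-fat livers and 6.67, 6.58 and 7.25 in knockout low-fat livers. Wild-type high-fat livers gave 6.54, 6.75 and 6.91, and knockout high-fat livers 6.36, 6.68 and 6.67. The genotypes overlapped on each diet and the diets in each genotype. The diet differences were -0.26 (95% interval -0.62 to 0.10, adjusted p = 0.784) for wild-type and -0.27 (-0.63 to 0.09, adjusted p = 0.658) for knockout livers, and the averaged genotype difference was -0.16 (-0.42 to 0.09, adjusted p = 0.87).

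Usp7, the deubiquitinase also called HAUSP, was read by 6 probe sets that did not share a direction. Averaged over the diets, 4 were higher and 2 lower in knockout livers, from -0.16 to 0.15, and 0 of the 6 had an unadjusted p under 0.05. The brightest, 1419920_PM_s_at, read 8.42, 8.47 and 8.65 in wild-type low-fat, 8.65, 8.57 and 8.74 in knockout low-fat, 8.56, 8.64 and 8.63 in wild-type high-fat and 8.61, 8.43 and 8.55 in knockout high-fat livers. These groups overlapped, and the averaged difference was 0.03 (95% interval -0.12 to 0.17).

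One Usp7 probe set, 1438249_PM_at, differed with diet in both genotypes at an unadjusted p under 0.05. It read 5.29, 5.15 and 5.03 in wild-type low-fat and 4.85, 4.79 and 4.77 in wild-type high-fat livers, with no overlap, which 6.99% of all probe sets showed in this direction. The difference was -0.35 (-0.64 to -0.07, adjusted p = 0.586), and -0.30 (-0.59 to -0.01, adjusted p = 0.459) in knockout livers, where the values were 5.21, 4.92 and 5.32 against 4.85, 4.70 and 5.01. The other 5 Usp7 probe sets had diet differences of -0.05 to 0.17 for wild-type and -0.18 to 0.10 for knockout livers, so the probe sets of this gene did not share the difference.

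**Figure D4:**
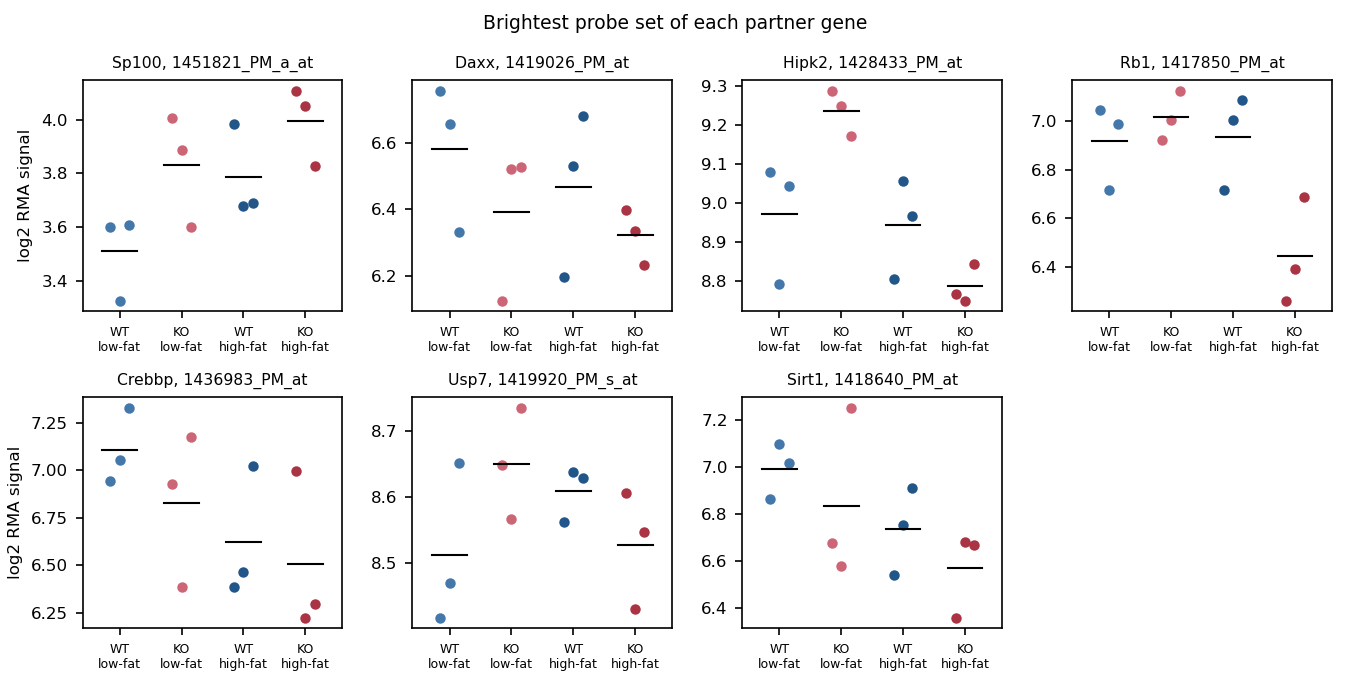
Log2 RMA signal of the brightest probe set of each of the 7 partner genes measured, in each of the 12 livers (WT, wild type; KO, knockout); points are single arrays, bars are means of 3 arrays, and each panel has its own axis. Hipk2 is highest in the knockout low-fat livers (9.17 to 9.29), Rb1 lowest in the knockout high-fat livers (6.26 to 6.69), and the groups of Daxx overlap.

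The diet differences of all members were set side by side for the genotypes. High-fat against low-fat diet gave 7 of 23 probe sets an unadjusted p under 0.05 in knockout livers, all lower, 5 of them Hipk2, 1 Rb1 and 1 Usp7, against 10.2% of all probe sets in either direction and 5.34% that were lower. In wild-type livers it gave 2 of 23, 1 Hipk2 and 1 Usp7, against 7.43%, and the adjusted threshold took in 0.0666% of all probe sets and 0 of the 23. The difference of the diet effects gave 6 of 23, 5 Hipk2 and 1 Rb1, all negative, against 5.69% of all probe sets in either direction and 2.9% that were negative, and 0 of 45037 passed after adjustment. Of the 23, 18 were lower on the high-fat diet in knockout livers and 11 in wild-type livers.

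**Figure D5:**
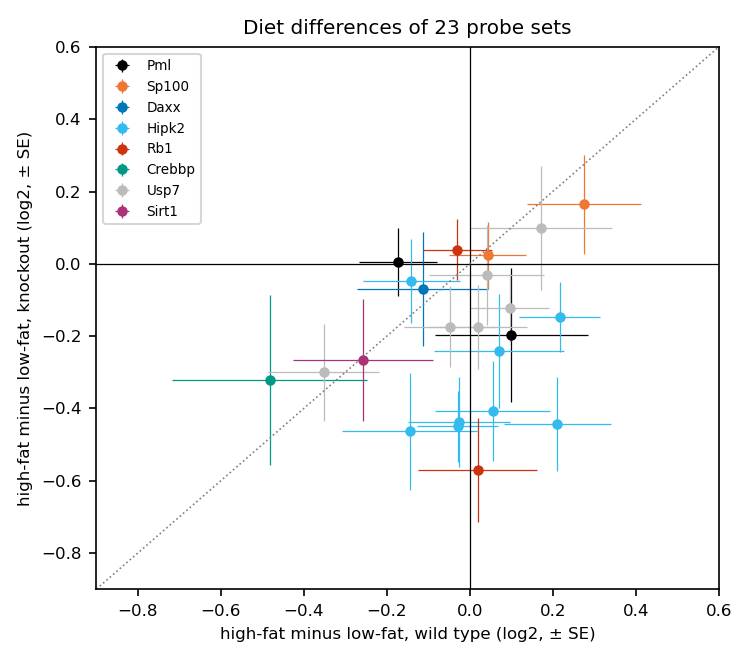
High-fat minus low-fat difference (log2) of the 23 probe sets in wild-type livers (horizontal axis) and in knockout livers (vertical axis); bars are limma's SE, colours are genes, and equal differences would fall on the dotted line. The Hipk2 points at -0.46 to -0.41 and the brighter Rb1 probe set at -0.57 on the vertical axis lie between -0.14 and 0.21 on the horizontal one, while Crebbp, Sirt1 and 1 Usp7 probe set lie low on both.

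The genes around the nuclear bodies were read from 5 lists, each gene by its brightest probe set: SUMO machinery, histone H3.3 chaperones, control of p53, DNA repair and other residents of the bodies. Of their 60 measured genes 0 passed in any comparison with limma after Benjamini-Hochberg adjustment. Between genotypes, unadjusted p under 0.05 was found for 3 higher and 2 lower genes on the low-fat diet, for 1 higher on the high-fat diet, and for 1 higher and 5 lower on average. Among all 17097 genes read the same way these were 761 higher and 510 lower, 434 higher and 345 lower, and 617 higher and 454 lower.

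SUMO machinery had 14 measured genes, among them genes of SUMO itself (Sumo2 and Sumo3) and of enzymes that attach and remove it. Their averaged differences ran from -0.12 (Senp7, a SUMO protease) to 0.11 (Sumo3), with a median of -0.004, beside 0.01 for all genes. The 10 genes of the H3.3 chaperone list ran from -0.11 (Cabin1) to 0.12 (Asf1b), with a median of -0.02. This list also holds the histone genes H3f3a and H3f3b and the heterochromatin genes Cbx1, Cbx3 and Cbx5, which are not chaperones. On the low-fat diet alone the SUMO genes ran from -0.24 to 0.21, and the genes of the chaperone list from -0.18 to 0.17. The 9 genes of p53 control had a median of 0.005, with Trp53inp1, a stress protein of the bodies induced by p53, at -0.57 (SE 0.232, adjusted p = 0.822) and the checkpoint kinase Chek2 at 0.18 (SE 0.0939, adjusted p = 0.822).

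Among 10 DNA repair genes the median was -0.02, and the helicase Wrn had -0.16 (SE 0.126, adjusted p = 0.874). Brca1, a repair factor of homologous recombination, had -0.43 (SE 0.169, adjusted p = 0.822). The 17 other residents had a median of 0.008 and held the widest values: Zbtb16, the zinc finger factor PLZF, at -1.04 (SE 0.479, adjusted p = 0.822), and Hhex, a homeobox factor that binds PML, at 0.54 (SE 0.188, adjusted p = 0.819). Neither passed.

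Interferon-stimulated genes were read in the same way, since Pml, Sp100 and Daxx are interferon-inducible. On the high-fat diet 23 of 26 measured genes were higher in knockout livers (median 0.22), of which 10 had an unadjusted p under 0.05 and 0 an adjusted one with limma. Among all 17097 genes 9026 were higher there (median 0.01), with 434 higher and 345 lower at an unadjusted p under 0.05. Under low-fat feeding 9 of 26 were higher (median -0.10), with 0 higher and 1 lower at an unadjusted p under 0.05, beside 9565 of all genes higher, and 761 higher and 510 lower at that p. Usp18, which restrains the interferon response, averaged 0.52 (SE 0.17, adjusted p = 0.819) and Ifit1, a sensor of viral RNA, 0.60 (SE 0.226, adjusted p = 0.822). In knockout livers 25 of 26 were higher on the high-fat diet (median 0.47, beside -0.01 for all genes), and Ifit3, which acts with Ifit1, was the 1 that passed, with a rise of 2.59-fold (adjusted p = 0.00232), beside 92 higher and 47 lower calls among all 17097 genes. In the same comparison 10 of 12 Kupffer cell and macrophage markers were higher (median 0.44) and 11 of 12 sinusoidal endothelial markers lower (median -0.33). At an unadjusted p under 0.05 (limma) there were 0 of the former, and 1 higher and 1 lower of the latter. With the same diet change in wild-type livers, 11 of 12 macrophage markers were higher (median 0.40) and 8 of 12 endothelial markers lower (median -0.04). There 17 of 26 interferon-stimulated genes were higher (median 0.05). The part of these cell types in the interferon values was not tested. The diet differences in knockout livers were 0.16 for the brighter Sp100 probe set and -0.07 for Daxx.

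The 5 genes whose profile over the 12 livers was nearest to that of the brighter Pml probe set were Setdb2, Cplane1, Exoc4, Shld1 and Dnajb6. Likeness was the root mean square difference between mean-centred log2 values, which was 0.556, 0.562, 0.575, 0.584 and 0.609 for these genes among 28875 candidate probe sets, and which is 0.858 for a flat profile. Since Pml is low in every knockout liver, choosing genes by likeness to it fixes that their knockout values are low, so what follows only describes them. The averaged differences were -0.89, -0.82, -0.76, -0.71 and -0.51, and none passed (adjusted p from 0.208 to 0.819). Exoc4, a subunit of the exocyst that tethers secretory vesicles, lay at 5.45 to 6.13 for wild-type and 4.80 to 5.39 for knockout livers, and Dnajb6, a co-chaperone, at 6.66 to 7.10 and 5.88 to 6.56, with no overlap in either, as 0.0733% of all probe sets had with knockout livers lower. Setdb2, a histone methyltransferase, overlapped, with 6.66 to 8.17 for wild-type and 6.45 to 7.21 for knockout livers. Among the partner probe sets the distance to Pml ran from 0.757 (Rb1) to 1.01 (Sp100), and the second Pml probe set lay at 0.714. The 5 genes were picked as the nearest of 28875 candidates. The larger distances of the partners therefore say nothing about whether they follow Pml.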

How the data were processed

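Liver RNA of 12 samples, 3 in each of 4 groups, was read on Affymetrix perfect-match arrays. Per the submitters' processing notes, the deposited log2 values come from RMA. No source used here gives its version. Of 45141 probe sets 104 controls were left out. GEO's platform annotation gave 1 gene to 28898 of the other 45037, several to 551 and none to 15588. Group means of all 45037 probe sets were fitted with limma 3.58.1 in R 4.3.3 (lmFit, contrasts.fit, eBayes with a variance trend, two-sided), without a filter, and p-values were adjusted by Benjamini-Hochberg over all of them in each of 6 comparisons (threshold 0.05). Arrays carry no read depth, and the 3 arrays per group limit the precision.

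The members and lists were chosen with earlier results of these data known. All member probe sets were described. Of each list, read at the brightest single-gene probe set, the genes past the threshold in a genotype comparison and the 2 with the largest averaged genotype difference were named, together with the 5 single-gene probe sets nearest to Pml. Ifit3 was named after its value was seen. The fit was tested on simulated data. Alternatives were quantile normalization, leaving out the 40% dimmest probe sets, the brightest probe set of each gene with the 40% dimmest genes left out, other variance settings, array weights, the replicate number as a block, the 2 groups alone and each array left out.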

Additional observations from a re-analysis of the deposited data

How the results depend on the processing

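The number of member probe sets past the threshold in knockout against wild type on the low-fat diet, 1 as reported, was 0 without the 40% dimmest probe sets (Pml adjusted p = 0.056, limma), without a variance trend (0.0793), with array weights (0.0817), with the 2 groups alone (0.0559) and without knockout low-fat replicate 2 and knockout high-fat replicate 3, an alternative chosen after seeing the data (0.115). It was 0 to 1 with each array left out, and likewise for the high-fat diet. Averaged over both diets it was 1 throughout. For diet in knockout livers, 0 as reported, it was 1 without the 40% dimmest probe sets, with robust variance and with array weights, 2 with the brightest probe set of each gene and the 40% dimmest genes left out together, and 0 to 1 with each array left out. It was 0 throughout for diet in wild-type livers and for the interaction.

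After each group's mean was subtracted, same-numbered arrays of different groups correlated at -0.105 to 0.334, with 7 of 18 pairs above 0.1. Of the 12 arrays, 8 correlated best, on average, with arrays of their own number. The labels do not say what the numbers mean, and the main fit did not use them to pair samples. These values do not show that same-numbered arrays are unrelated, which was not tested further. With the replicate block the low-fat count was 0 (Pml adjusted p = 0.0566), and the counts were 1 on the high-fat diet and on average and 0 elsewhere.

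Over all probe sets, the 226 calls for diet in knockout livers became 75 with the 2 groups alone, 366 with array weights, 48 without the 2 arrays lowest in macrophage markers and 61 to 395 with each array left out. The 30 for diet in wild-type livers became 50 with array weights and 12 to 44 with each array left out. With the brightest probe set of each gene and the 40% dimmest genes left out, which leaves 10258 probe sets, they became 18. The 1 call between genotypes on the high-fat diet became 4 with the 2 groups alone and 7 without knockout high-fat replicate 3. The averaged comparison gave 2 with the brightest probe set of each gene and the 40% dimmest genes left out. The low-fat comparison gave 2 without wild-type low-fat replicate 1, and the interaction 1 with robust variance or array weights. Of 2732 recomputed single differences, 2709 were counted as kept, 6 newly passed, 17 no longer passed and 0 reversed. The 2709 stayed on their side of the threshold and include 108 sign changes of values within 1 SE of 0. The causes were not tested. Dim signals limit Sp100, the second probe sets of Pml and Rb1 and 2 of Hipk2.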
